A study of Homo sapiens with 24 samples.

Results

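The Agilent SurePrint array of the genistein experiment carries probes for long intergenic non-coding RNA (lincRNA) intervals, stretches of the genome catalogued as transcribed outside of known genes, which the array names only by chromosome, start, end and strand. The members described here were selected on measured values: an interval was taken when a probe on it was well above background in the control channel (Cy3) on all 16 arrays of this design. This was met by 2064 of 8263 lincRNA probes (24.98%), which lie in 1926 of the 7405 intervals that carry a probe. A further 30 probes met the detection rule and were left out by position, namely those of intervals on chromosome Y, at the X inactivation locus and in 1 stretch of chromosome 11. Intervals are named with the coordinates of hg19, the build given in the scanner files, and F or R for the strand.

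Every array held RNA of 1 established human cancer cell line, with treated RNA in Cy5 and control RNA of the same line in Cy3, and the dyes were not swapped. PC3, DU145 and LNCap are prostate cancer lines, 786O and A498 renal cancer lines, and FaDu and SAS lines of head and neck squamous cell carcinoma. The 16 arrays compared the soy isoflavone genistein with no treatment (PC3, DU145), the flavone wogonin with DMSO (SAS, FaDu), knock-down of CAV2 (A498, 786O) or LAMB3 (FaDu, SAS) with control siRNA, and transfected miR-145 (PC3, DU145, LNCap), miR-375 (FaDu), miR-23b, miR-24, miR-27b (PC3) and miR-29a (SAS) with a control miRNA. The labels call the genistein control untreated, whereas the methods of the study name a DMSO vehicle. A second array design with 8 arrays held miR-143 and si-GOLM1 in DU145 and PC3, miR-27b in 786O and A498, and the chemokine CXCL10 in 786O for 12 and 24 hours against no treatment. Each combination of line and treatment had 1 array, so that the lines of a treatment served as its replicates.

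Most lincRNAs have no known function. Some are processed like mRNA, with a cap, splicing and a poly(A) tail, and some act in cis on their neighbours or as scaffolds for chromatin complexes. HOTAIR, transcribed from the strand opposite to the HOXC genes, is known for its binding to Polycomb repressive complex 2. The small nucleolar RNA host genes (SNHG) carry snoRNAs in their introns, and many of their spliced transcripts have short reading frames and are removed by nonsense-mediated decay, which depends on translation. TUG1 is a widely expressed nuclear and cytoplasmic lincRNA.

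The array reads each interval through a 60-base probe, and the sequences below, as the scanner files give them, are those on which the results turn. The first pair lies in the HOTAIR region on opposite strands, and the capitals in the first mark a polyadenylation hexamer. The 2 SNHG5 probes are offset by 1 base, with the 59 shared bases in capitals. The last group holds members whose ratio had 1 sign on every array, with each run of 4 or more G in capitals. The others, with no capitals, carried the largest changes. Among them the R probe of chromosome 3 also holds GGGG, left in lower case, and is among the members left out later for this run.
HOTAIR, chr12:54356096-54356155, R: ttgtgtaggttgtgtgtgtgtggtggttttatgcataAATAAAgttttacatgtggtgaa
HOTAIR region, chr12:54360098-54360157, F: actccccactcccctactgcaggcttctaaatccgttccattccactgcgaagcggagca
SNHG5, chr6:86387513-86387572, R: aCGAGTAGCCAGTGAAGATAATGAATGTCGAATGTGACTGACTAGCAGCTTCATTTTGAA
SNHG5, chr6:86387512-86387571, R: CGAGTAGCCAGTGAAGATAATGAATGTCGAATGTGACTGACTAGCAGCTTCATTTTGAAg
LINC00958, chr11:13001641-13001700, R: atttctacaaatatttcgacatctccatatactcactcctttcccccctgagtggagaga
miR-145 interval, chr5:131808618-131808677, F: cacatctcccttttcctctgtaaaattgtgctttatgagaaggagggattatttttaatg
genistein interval, chr3:106622201-106622260, F: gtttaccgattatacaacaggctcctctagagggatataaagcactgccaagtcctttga
genistein interval, chr3:106621364-106621423, R: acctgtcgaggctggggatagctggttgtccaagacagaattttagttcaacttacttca
genistein interval, chr1:173833066-173833125, F: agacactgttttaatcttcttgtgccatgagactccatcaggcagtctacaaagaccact
1 sign, chr12:105956373-105956432, F: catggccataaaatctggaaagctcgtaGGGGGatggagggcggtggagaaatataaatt
1 sign, chr14:101367143-101367202, R: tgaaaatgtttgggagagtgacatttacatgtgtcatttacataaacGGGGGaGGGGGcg
1 sign, chrX:110764620-110764679, R: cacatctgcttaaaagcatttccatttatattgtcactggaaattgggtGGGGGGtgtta
1 sign, chr7:30427286-30427345, R: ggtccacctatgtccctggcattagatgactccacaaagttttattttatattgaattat

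Detection in every control channel was less frequent among lincRNA probes (24.98%) than among the 24440 probes with an mRNA accession, of which 51.69% met the same rule. The members were spread over both strands, with 1024 on F and 1040 on R, and an interval held at most 2 of them per strand. Both strands were probed in 2114 intervals. In 973 of these at least 1 strand had a member, and in 757 of the 973 it was 1 strand alone. At the edge of the rule, the lowest control signal of a member on any 1 array was that of chr2:162101249-162105559 (F), at 10.96 intensity units in 786O (median over the arrays 256.5). Just outside, a probe of the F strand of chromosome 6, opposite to SNHG5, was missed on the miR-24 array of PC3 alone and gave 41.6 to 134 units. In all, 256 lincRNA probes were detected on 15 of the 16 arrays. They were missed most often on the wogonin array of FaDu (63), the miR-29a array of SAS (44), the miR-145 array of LNCap (37) and the genistein array of PC3 (35).

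On the second design, which the rule did not use, 459 of the members had the same probe, and 448 of them (97.6%) were above background in Cy3 on all 8 arrays, against 181 of 1014 (17.85%) of the other lincRNA probes. The treated channel was above background on all 16 arrays of the first design for 2042 members (98.93%). The later design also named many intervals. Of the 459, 203 (44.23%) had been given a non-coding RefSeq accession, 93 (20.26%) an mRNA accession and 85 (18.52%) a transcript of a lincRNA catalogue.

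The line labels were checked in the control channel. In it 1 of 2 PAX2 probes was above background in the renal lines alone, and KRT5 in FaDu and SAS alone. The control channels of 1 line correlated at r = 0.9635 to 0.9926 over the members and those of different lines at 0.875 to 0.9479. The control channels of the miR-23b, miR-24 and miR-27b arrays of PC3 were the closest (r = 0.9903 to 0.9926), and whether they held the same control RNA is not stated in the labels.

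In response to treatment the members as a whole moved less than mRNA probes. The range of the log2 ratio (treated over control) over the 16 arrays had a median of 1.22 for the members and 1.64 for the 12632 mRNA probes that met the same rule. Within bands of equal control signal it was 1.17 to 1.34 for the members and 1.39 to 1.75 for mRNA. The difference was thus seen at every brightness. It did not hold for all members named on the second design. Their median range was 1.80 with a non-coding RefSeq accession, 1.77 with an mRNA accession and 1.74 with a cDNA, an EST or no transcript. For Ensembl transcripts it was 1.49 and for lincRNA catalogue transcripts 1.20. A ratio within 0.5 of 0 on all 16 arrays was found for 467 members (22.63%) and for 6.09% of the mRNA probes. Among the arrays the spread over members was widest for genistein in PC3 (SD 0.708), miR-375 in FaDu (SD 0.656) and miR-24 in PC3 (SD 0.598). It was narrowest for si-CAV2 (SD 0.246 in 786O and 0.274 in A498).

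Of the 5 treatments with a test, genistein changed the most members, and more of them fell than rose. In the limma fit of the 16 arrays, 204 members (9.88%) were lower and 94 (4.55%) higher at an adjusted p of 0.05, where 6.28% and 5.88% of all 20551 probes tested were lower and higher. Of the 12632 mRNA probes that met the same rule, 4.59% were lower and 6.38% higher. Their balance of directions was the opposite of that of the members. The rule used the control signal of these arrays, which is also the denominator of the ratio, whereas the probes tested needed signal in either channel only. How far this shaped the balance in any treatment was not tested. The median log2 ratio of the members was -0.08, beside 0.01 over all probes tested. A log2 ratio beyond 1 in both lines was measured for 37 members with a fall (1.79%; 0.905% of all probes tested) and 18 with a rise (0.872%; 1.01%). The ratios of the lines correlated at r = 0.494 over 2064 members and 0.347 over mRNA. The call rests on a spread shared over all treatments (6 residual degrees of freedom): a fit of the 2 genistein arrays alone called 0 members, without PC3 the count was 65 lower and 22 higher, and without DU145 it was 159 and 127.

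The other treatments with a test changed fewer members than genistein. miR-145 had 72 members lower (3.49%) and 34 higher (1.65%), with a background of 3.73% and 3.1%. si-LAMB3 had 70 lower (3.39%) and 41 higher (1.99%), with a background of 5.32% and 3.93%. The share of members was thus below that of all probes tested for si-LAMB3 in both directions and for miR-145 in the upward one. The miR-145 split turned to 42 lower and 62 higher with normexp and to 47 and 60 with no background correction. Wogonin had 28 lower (1.36%) and 40 higher (1.94%), with a background of 1.33% and 2.12%. si-CAV2 had 11 lower (0.533%) and 1 higher (0.0485%), with a background of 0.156% and 0.00487%. These counts also rested on single lines: miR-145 gave 26 members without PC3, si-LAMB3 13 without SAS and 45 without FaDu, wogonin 19 without SAS and 32 without FaDu, and si-CAV2 0 without either line.

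**Figure D1:**
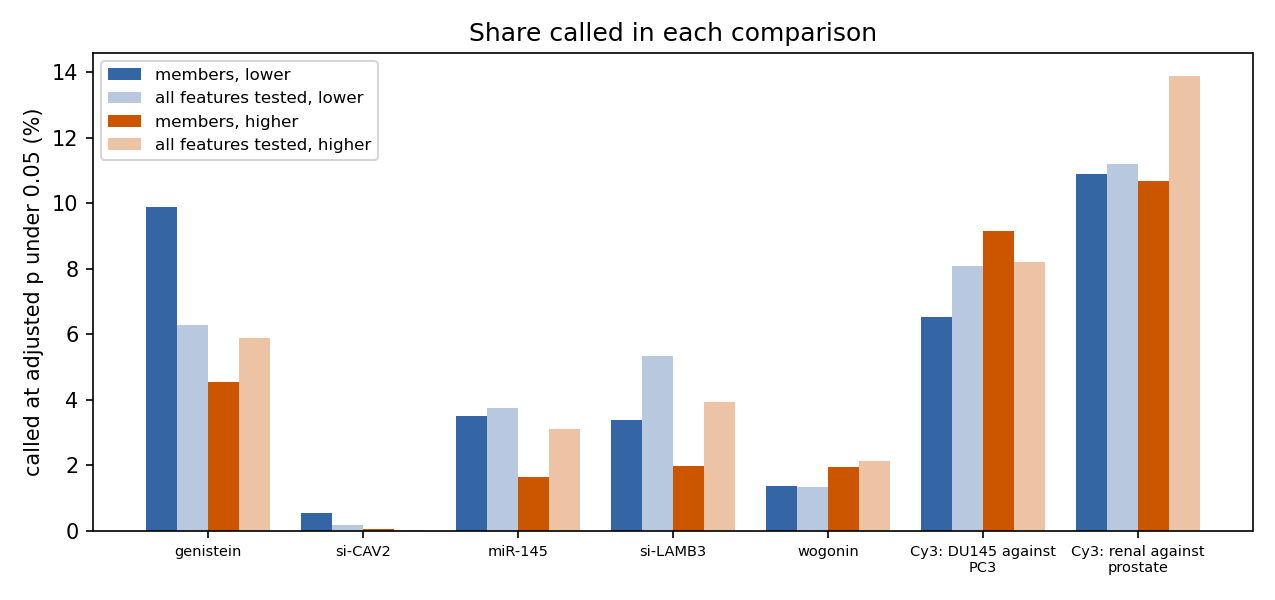
Share of members (dark bars) and of all probes tested (pale bars) called lower (blue) or higher (orange) at an adjusted p of 0.05, in percent, for 5 treatments and for 2 comparisons of control channels on the second design. For genistein the dark blue bar (9.88%) is above the pale one (6.28%), while the dark orange bar (4.55%) is below its pale one (5.88%).

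The treatments with 1 array allow no test and are described by size. A log2 ratio below -1 was found for 119 members (5.77%) after miR-375, 59 (2.86%) after miR-23b, 121 (5.86%) after miR-24, 48 (2.33%) after miR-27b and 42 (2.03%) after miR-29a. Over all probes tested these shares were 7.98%, 3.28%, 10.8%, 3.54% and 2.61%. A ratio above 1 was found for 102 (4.94%), 24 (1.16%), 74 (3.59%), 25 (1.21%) and 14 members (0.678%) in the same order, beside 8.79%, 3.24%, 9.64%, 4.55% and 2.53% of all probes tested. In each of the 5 the members were past 1 less often than all probes tested in both directions, and more often lower than higher. The probes tested needed signal in either channel only, whereas the members needed control signal. Of the mRNA probes that met the same rule, 8.45%, 3.34%, 13.1%, 3.69% and 2.86% were below -1 in the same order. Above 1 were 8.95%, 2.54%, 9.97%, 3.94% and 1.09% of them. How far the rule shaped the shares of the members was not tested.

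Single intervals showed how differently the lines could respond. The lowest means after genistein were 2 intervals that share a stretch of chromosome 3, chr3:106619835-106630535 (F) and chr3:106526585-106630535 (R), read by probes on opposite strands. The F probe gave log2 ratios of -5.67 in PC3 and -1.09 in DU145 (adjusted p = 0.0251). Its treated channel was above background on 1 of the 2 arrays, so its size is uncertain, and with the background correction normexp the mean was -1.25 in place of -3.38. The R probe gave -6.10 and -0.65 (adjusted p = 0.0425). On the 14 arrays of other treatments they lay between -0.52 and 0.25 and between -0.62 and 0.61. The PC3 value was far below all others for both probes, whereas the DU145 value of the R probe was close to the lowest of the other arrays. The largest rises were at chr17:21435180-21454915 (R, later named C17orf51), with 1.49 in PC3 and 2.14 in DU145 (adjusted p = 0.0351; -1.15 to 1.49 on the other arrays), and at chr1:173833042-173834652 (F), with 2.01 and 1.52 (adjusted p = 0.00385). The latter ranged from -0.68 to 0.61 on the other 14 arrays.

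miR-145 raised an interval on chromosome 5, chr5:131806278-131808704 (F), in each of its 3 lines. The log2 ratios were 3.16 in PC3, 2.45 in DU145 and 2.47 in LNCap, a mean of 6.48-fold (SE 0.29 on the log2 scale, adjusted p = 0.00101), while the 13 other arrays spanned -0.87 to 0.86. The groups did not overlap. The second, chr17:78296530-78306830 (F), was later named for RNF213, which encodes a large ubiquitin ligase, and gave 2.61, 1.96 and 1.26 (adjusted p = 0.00145). On the other arrays it lay between -0.99 and 0.46.

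After si-LAMB3, chr12:96804844-96821287 (F) rose by 1.28 in FaDu and 1.74 in SAS (adjusted p = 0.00481), beside -0.23 to 0.59 on the other arrays. Wogonin raised chr1:211556096-211605878 (F, LINC00467) by 1.21 in SAS and 1.51 in FaDu (adjusted p = 0.00746) and chr15:50648133-50663574 (F) by 1.37 and 1.30 (adjusted p = 0.0343; -1.55 to 0.86 on the other arrays). The range of LINC00467 on the 14 other arrays was -0.86 to 0.67. For si-CAV2 the member named LETR1 (chr15:95822518-95870329, R) gave 2.22 in A498 and 0.52 in 786O and did not pass the test (adjusted p = 0.851).

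On the arrays of single miRNAs, LINC00958 (chr11:13001081-13011095, R), an intergenic RNA reported in several epithelial cancers, had the lowest ratio, -4.02 in FaDu after miR-375. On the other 15 arrays it lay between -1.04 (genistein, PC3) and 0.63. SCARNA16, a small Cajal body RNA within chr17:75085388-75085575 (F), was the highest member both after miR-24 in PC3 (2.96) and after miR-29a in SAS (2.15), and it reached 1.64 after miR-375 in FaDu and 1.25 after si-LAMB3 in SAS. The other extremes were chr17:54905843-54906302 (R) at -2.73 after miR-24, chr14:23018310-23025460 (F) at 2.56 after miR-27b, chr21:37790605-37795730 (F) at 2.39 after miR-375 and chr9:21879775-21938825 (F) at 2.07 after miR-23b. These are single measurements with no replicate check.

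SNHG5 was the best covered RNA among the members, with 17 overlapping probes between 86386823 and 86387747 of chromosome 6 on the R strand. Such probes read 1 transcript and are not independent: their ratios over the 16 arrays correlated with a median r of 0.986. After genistein all 17 were called higher, with a median log2 ratio of 1.13 (0.97 to 1.39, adjusted p from 0.00857 to 0.0167). The rise was larger in PC3, with 1.45 to 2.12 over the probes, than in DU145, with 0.49 to 0.70. This difference between the lines was not tested. None of the 17 was called after si-CAV2, miR-145, si-LAMB3 or wogonin, where the medians were 0.05, -0.01, -0.02 and -0.35.

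Other named snoRNA host genes also rose after genistein. A list of 18 names had 13 probes of 11 genes that passed the filter, none of them lincRNA interval probes. After genistein 7 were higher and 0 lower: SNHG8 (2.05), GAS5 (1.72), SNHG1 (1.53), SNHG12 (1.51), SNHG5 (1.13), SNHG7 (1.04) and SNHG6 (0.83), each a snoRNA host gene. Of all probes tested, 5.88% were higher after genistein. The median of the list was 0.83, whereas the median of the members was -0.08. The others did not pass, with SNHG3 at -0.52 (adjusted p = 0.0503), KCNQ1OT1 at -0.70 (adjusted p = 0.291) and a second SNHG7 probe at -0.47 (adjusted p = 0.107). After si-LAMB3, SNHG8 (-0.78) and 1 of 2 TUG1 probes (-1.21) were lower. Counts for this list are a description, since it was chosen with earlier results known.

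SNHG5 also separated the cell lines in the control channels. Its scaled control level (log2 signal minus the 75th percentile of the array, median of the 17 probes) was 1.94 ± 0.25 in PC3 (SD, n = 5), 1.61 in A498 and 2.95 in LNCap, against 5.88 in 786O, 6.05 in DU145, 5.87 in FaDu and 6.05 in SAS. On the second design the levels were 2.89 in PC3, 2.65 in A498, 6.23 in DU145 and 6.94 in 786O. There, all 17 probes were higher in DU145 than in PC3, by a median of 3.25 (adjusted p from 0.000697 to 0.00137). The renal and prostate lines as groups did not differ for any of the 17 (adjusted p from 0.258 to 0.814), and each group held a high and a low line. The genistein rise in PC3 thus started from the lower level.

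**Figure D2:**
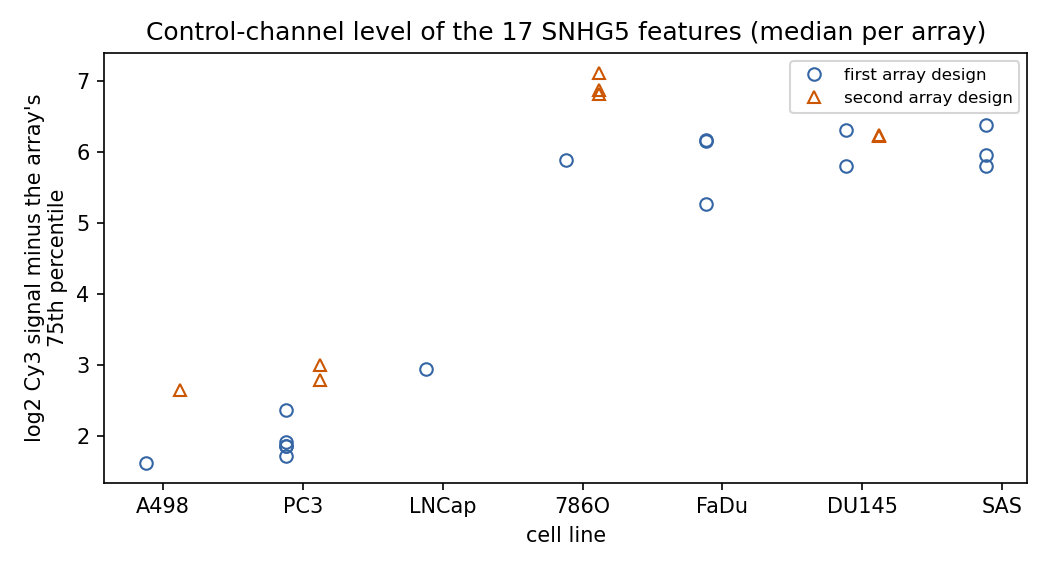
Control-channel level of SNHG5, as log2 Cy3 signal minus the array's 75th percentile, with 1 point per array (median of 17 probes) on the first (circles) and second design (triangles). A498, PC3 and LNCap lie below 3, and 786O, FaDu, DU145 and SAS between 5.27 and 7.12.

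TUG1 had 10 member probes over 3.2 kb of the F strand of chromosome 22, and they did not move as 1 unit (median r between probes 0.246). The 3 probes nearest the 3′ end, from 31374898 to 31375336, gave -2.11, -2.52 and -2.06 after miR-24 in PC3, -1.46, -2.46 and -1.15 after miR-29a in SAS, and -2.26, -1.76 and -1.61 after si-LAMB3 in SAS. The 7 probes upstream lay between -1.15 and 0.16 after miR-24, between -0.85 and 0.17 after miR-29a and between -0.76 and -0.04 after si-LAMB3 in SAS. The lowest of these after miR-24 was the probe farthest upstream. Over the treatments with a test, 2 of the 10 were called, both lower after si-LAMB3 (smallest adjusted p = 0.0343). With normexp the ratio of the middle 3′ probe after miR-29a was -0.68 in place of -2.46.

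**Figure D3:**
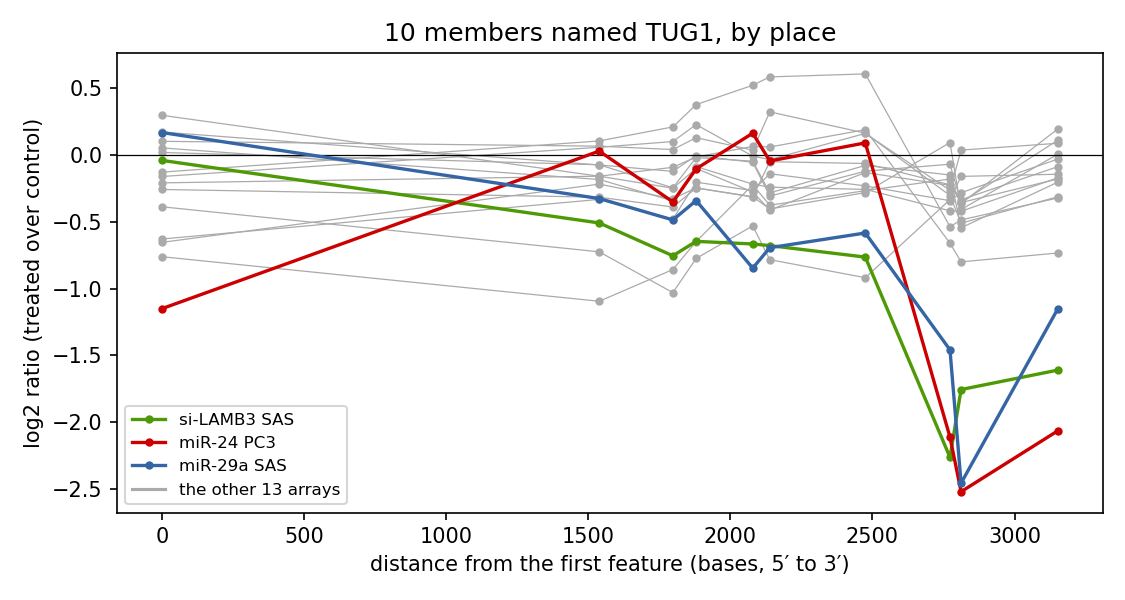
Log2 ratio (treated over control) of the 10 TUG1 members by distance of the probe from the first, in bases, with 1 line per array. The 3 probes farthest from the first fall to between -1.15 and -2.52 on the miR-24 (red), miR-29a (blue) and si-LAMB3 SAS (green) arrays, while the other 13 arrays are in grey.

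HCG18, a lncRNA of the HLA region, had 12 members on the R strand of chromosome 6. These probes bear the name of 1 transcript and are not independent. After genistein 7 of the 12 were higher and 0 lower (median 0.62), where 5.88% of all probes tested were higher. The 12 had medians of 0.91 (PC3, -0.18 to 1.36) and 0.35 (DU145, -0.67 to 1.02). The array's own HCG18 probe gave 0.08 and did not pass (adjusted p = 0.854). After miR-24 in PC3 the median was -1.08. In the control channels of the second design 7 of the 12 were lower in the renal than in the prostate lines, with a median difference of -0.91. Of all probes tested there, 11.2% were lower. LOC100506190, with 15 members on the F strand of chromosome 9, showed the opposite picture in the lines after genistein: the median was 1.09 in PC3 (0.92 to 1.39) and -0.54 in DU145 (-1.25 to 0.35), and no probe passed the test. The array's own probe of this name did not follow the 15 members (r = -0.499 to -0.105 over 16 arrays). After si-LAMB3 its medians were -0.70 in FaDu and -0.71 in SAS, and no probe passed (smallest adjusted p = 0.0557).

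In the HOTAIR region 2 probes were members. The R probe, later named HOTAIR, gave -0.08 in PC3 and -0.53 in DU145 after genistein. The study reports a larger fall of HOTAIR in both lines by array, and a fall by PCR. Which probe it used is not stated, and HOTAIR probes outside the members are not described here. The values of the R probe alone are thus no measure of the response of HOTAIR. On the other 14 arrays of the design the R probe was positive, from 0.18 (miR-375, FaDu) to 0.85 (miR-24, PC3). On the second design it was positive on 8 of 8 arrays, from 0.30 to 0.65. The genistein arrays were therefore the only negative ones of 24, and in PC3 the value was close to 0 by itself. Its sequence holds a TG repeat, and the members with such a repeat had a median ratio of 0.42 over the 16 arrays, and the part of the dye in its values was not tested. The F probe, within chr12:54360060-54360161, lay between -0.33 and 0.38 on the 16 arrays and was negative on 6 of them, with -0.21 and -0.26 after genistein.

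Some members had the same sign whatever the treatment. On all 16 arrays 27 were negative and 4 positive (1.5% of members). Of the 14956 other probes that met the detection rule, 34 were negative and 66 positive throughout (0.669%), and 21 of those 34 also held GGGG. The means of the 27 over the arrays ran from -1.87 to -0.43, arrays with a treated channel near background included, and 10 members, all of 1 sign, were called in each of the 5 treatments with a test. Among the 27 probes, 26 hold a run of GGGG on the strand printed, as do 304 members (14.73%) and 12.5% of all probes of the design, and 18 hold GGGGG (75 members, 3.63%, and 2.8% of all probes). Their control signal was low, with a median of 72.95 intensity units, where that of all members was 177.3. These runs were looked for after the values were seen. The median of the mean ratio over 16 arrays was -0.23 for members with GGGGG and -0.01 without. On the second design it was -0.16 (14 members) and 0.02 (445 members). With the dyes never swapped, treatment and dye cannot be told apart for values of this kind.

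Several of the lowest members by treatment were among these. After miR-145 they were chr12:105956302-105956716 (F; -1.24, -2.01 and -1.82) and chr6:3908865-3909288 (F; -0.78, -1.71 and -1.85), which were negative on each of the other 13 arrays too, at most -1.16 and -0.70. After si-CAV2 they were chr14:69118322-69174922 (R; -2.02 and -1.29) and chr1:110805177-110862777 (R; -1.48 and -1.49), and the only rise, chr7:30419650-30454050 (R; 1.18 and 1.19), lay between 0.49 and 1.79 on all other arrays. The lowest after si-LAMB3 (chr12:105956302-105956716 and chrX:110756819-110881269, R) and after wogonin (chr10:92927295-92961870, F, and chr14:101355772-101387422, R) were of the same kind. The treated channel of chr12:105956302-105956716 was not well above background on either si-LAMB3 array or on the miR-23b array, nor that of chr10:92927295-92961870 on either wogonin array, so no size is given for those. The same holds for chr14:101355772-101387422 after miR-27b, and chr14:69118322-69174922 was above background in that channel on 1 of the 2 si-CAV2 arrays. In the 5 treatments with a test, the values of these intervals overlapped with those of the other arrays, while the miR-23b and the miR-27b array were the lowest of 16 for chr12:105956302-105956716 and chr14:101355772-101387422.

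The 304 members whose probe holds GGGG were left out in an alternative chosen after seeing the data. Genistein then had 144 lower (8.18%) and 87 higher (4.94%). The share over all probes without this run was not computed, so the counts of this alternative have no background beside them. The counts became 34 lower and 29 higher for miR-145, 36 and 39 for si-LAMB3, 5 and 38 for wogonin and 1 and 1 for si-CAV2. Falls then outnumbered rises by little for miR-145 and not for si-LAMB3, and 10 of the 11 falls after si-CAV2 were in probes with this run. A TGTGTGTG repeat went the other way: 23 members (1.11%; 0.472% of all probes) held it, with a median mean ratio of 0.42, and 2 of the 4 always positive members were among them. A run of CCCCC, the complement of GGGGG, was more frequent in members (10.37%) than in the other lincRNA probes (3.0%) or in all probes (3.04%), with no shift of the ratio (median -0.01). The AATAAA hexamer was found in 3.44% of members, 4.37% of other lincRNA probes and 6.98% of all probes.

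**Figure D4:**
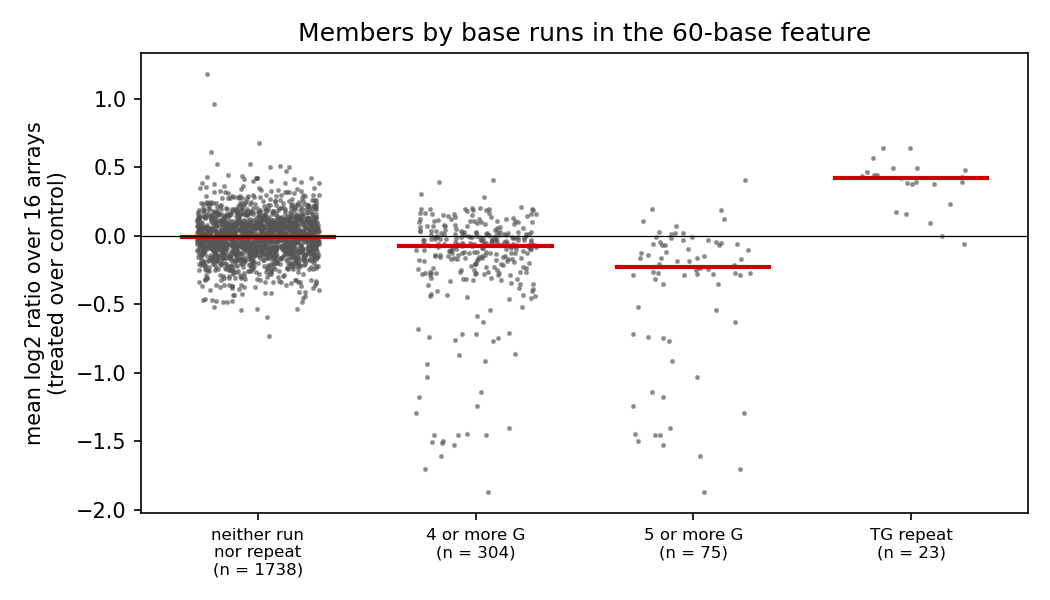
Mean log2 ratio over 16 arrays of each member (points), grouped by base runs in its 60-base probe, with group medians as red lines. Members with 5 or more G, also counted among those with 4 or more, have a median of -0.23 and reach -1.87, members with a TG repeat have a median of 0.42, and the others have a median near 0.

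Where 1 interval held more than 1 member, probes of the same strand moved together more closely than probes of opposite strands. The correlation of the log2 ratios over the 16 arrays had a median of 0.816 over 138 same-strand pairs (87 above 0.5) and 0.179 over 251 opposite-strand pairs (61 above 0.5). Without pairs that overlap in position the medians were 0.81 (133 pairs) and 0.136 (217 pairs). These are descriptions over pairs that share arrays and neighbouring sequence. After genistein, pairs with at least 1 called probe had the same sign in 33 of 36 same-strand pairs and in 47 of 67 opposite-strand pairs, where over all pairs it was 112 of 138 and 142 of 251. In the 11 pairs of each kind where both probes were called, the sign was the same in 11 of 11.

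Some intervals departed from this rule. The interval with the most members, chr3:160210781-160217931, had 2 on each strand. The R pair, later named KPNA4 for an importin alpha gene, correlated at 0.969 and the F pair at 0.842, and pairs of opposite strands were nearly as close (0.775 to 0.883). The R probe with the higher coordinates gave 0.79 in PC3 and 0.73 in DU145 after genistein, and an F probe 0.47 and 0.98. In chr12:79972444-79982744 the R pair correlated at 0.958 and the F probe with both at 0.839 and 0.853. In chr11:65068424-65079274 the 2 R probes did not move together (r = -0.17).

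**Figure D5:**
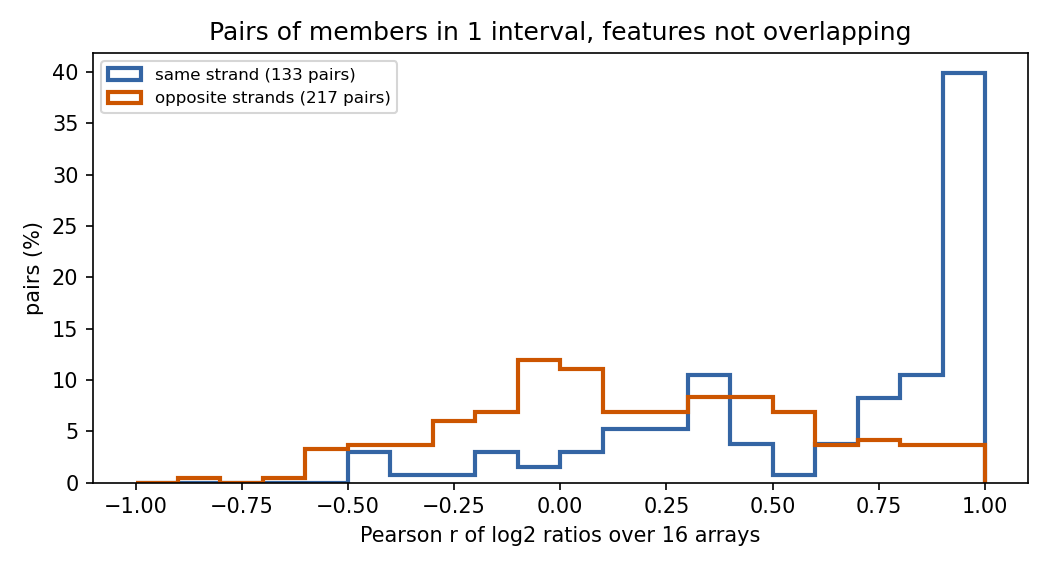
Share of pairs (percent) by Pearson correlation of the log2 ratio over 16 arrays, for member pairs of 1 interval that do not overlap, on the same strand (blue, 133 pairs) or on opposite strands (orange, 217 pairs). The same-strand pairs have a median of 0.81 and pile up above 0.9, and the opposite-strand pairs have a median of 0.136.

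The later names of the intervals also point to genes elsewhere in the genome. Of 236 members with a matched symbol, 31 bear the symbol of 28 genes that lie on another chromosome than the interval. For 29 of them the gene had a probe of its own on the array, and the ratios over the 16 arrays correlated with a median r of 0.919 over 52 pairs, 47 of them above 0.5. An X chromosome interval named for the replication clamp gene PCNA reached r = 0.996, one on chromosome 7 named for the ferritin light chain gene FTL 0.996, and one on chromosome 6 named for the ribosomal protein gene RPL5 0.977. Pairs of members with an mRNA name on their own chromosome had a median r of 0.655 (71 pairs, 45 above 0.5), and those with a non-coding RefSeq name 0.774 (170 pairs). Among the best matches of each member, the lowest r were 0.495 (CELF1) and 0.569 (1 of 2 NASP members).

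Between the lines, the scaled control levels of a member spanned a median of 1.08 log2 units over the 7 line means, against 1.6 for mRNA. A span over 2 was found for 403 members (19.53%; 32.92% of mRNA) and over 4 for 56. SAS was the highest line for 481 members and LNCap for 440, while 786O was the lowest for 484. These levels were used by the rule and are given without a test.

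The control channels of the second design tested the difference between lines apart from the rule. Of the 459 members there, 30 (6.54%) were lower and 42 (9.15%) higher in DU145 than in PC3, with a background of 8.08% and 8.21% of 26794 probes. Between the renal lines (786O, A498) and the prostate lines, 50 (10.89%) were lower and 49 (10.68%) higher in the renal lines, with a background of 11.2% and 13.9%. The members thus differed between lines about as often as all probes did, except for a smaller share higher in the renal lines. The counts ranged from 21 to 181 for DU145 against PC3 and from 38 to 235 for the renal lines when 1 array was left out, highest without the miR-27b array of 786O, and they were 194 and 162 without the untreated 786O controls. Differences between lines measured on the first design were found again on the second: over the 459 members r was 0.83 for DU145 minus PC3, and 122 of 127 past 1 kept their sign. For renal minus prostate r was 0.722, with 66 of 68.

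Individual intervals differed by far more than this. LOC100509498 (chr16:80631802-80632239, R) was lower in DU145 than in PC3 by a log2 difference of -5.15 on the first design. On the second it was above background in both PC3 arrays and in 0 of 2 DU145 arrays, so that PC3 was at least 47.4-fold higher (adjusted p = 0.00187). The 2 SNHG5 probes printed above were higher in DU145 by 4.14 and 4.11 on the first design and by 3.60 and 3.36 on the second. The TET1-named interval chr3:52055835-52067110 differed by -3.23 on the first design and by -0.74 on the second, where it did not pass (adjusted p = 0.491).

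Among the 459 members also on the second design, LINC00958, which fell after miR-375, had the largest excess in the renal lines on the first. The difference was 4.63 there and 3.39 on the second (adjusted p = 0.00387). The scaled level of LINC00958 was 3.90 in 786O, 3.77 ± 0.13 in SAS (SD, n = 3), 0.95 ± 0.34 in FaDu (n = 3) and 0.08 in A498. It was -2.50 in DU145, -2.77 ± 0.22 in PC3 (n = 5) and -3.18 in LNCap. The 2 renal lines thus differed by almost as much as the renal and prostate groups. LITATS1 (chr1:37920481-37921461, R) also had a higher mean in the renal lines, by 2.08 and 1.96 (adjusted p = 0.00275). On the second design 786O (1.28) and PC3 (1.26) were alike, while A498 was at 3.05 (1 array) and DU145 at -0.84. LNCap, which the second design lacks, had the highest level of the 7 lines on the first (3.12). LOC100287628 (chr16:10479917-10481598, F) was lower in the renal lines by -4.06 and -2.92 (adjusted p = 0.00382). After genistein this probe gave -1.59 in PC3 and -1.35 in DU145, and the study lists the same values among the lncRNAs lowered by genistein. Its ratio was also low after miR-375 in FaDu (-1.81) and after wogonin in FaDu (-1.27). The member at the edge of the rule, chr2:162101249-162105559 (F), was lower by -3.29 on the first design and by -2.48 or more on the second (adjusted p = 0.00118), where it was above background on the 3 arrays of 786O and not on that of A498. It was highest in FaDu (0.30) and SAS (0.31).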

How the data were processed

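Scanner files of 24 two-colour arrays, made with Feature Extraction 10.7.3.1, were deposited. The log10 ratio of Cy5 over Cy3 and the processed intensity signals that the authors deposited per spot had been corrected for background and dye by that software, and its p-values were not used. Log10 ratios were multiplied to log2, flagged and control spots were left out and spots of a probe were averaged. The members and lists were chosen with earlier results of these data known. The fit by limma 3.58.1 (R 4.3.3) took 1 coefficient for each of 10 treatments over the 16 arrays, with Benjamini-Hochberg adjustment over 20551 of 42405 probes that were above background in at least 1 channel on every array. Each treatment lay on 1 of 2 slides, so slide entered only by subtracting other treatments on the slide. Control levels are log2 Cy3 signal minus the array's 75th percentile, and 26794 probes were tested over 8 control channels. P-values measure the spread between lines, or between control channels that may not be separate cultures, and the number of arrays limits the precision. Named members are the 2 lowest and 2 highest called for each treatment. They were filled with members past 0.5 on all its arrays where too few were called, with 1 each for treatments with 1 array. To these came the members that differ most between lines on the first design, among those also on the second, and the HOTAIR region. All members of 3 intervals with the most were named too (1 with 4, and 2 of the 32 tied at 3). SNHG5, TUG1, HCG18, LOC100506190, the pairs and the runs were added after their values were seen. In 10000 simulated probes the genistein fit found 120 of 200 changes of 1 log2 unit and 185 of 200 of 2, with 7 false calls each. The DU145 against PC3 fit found 0 and 95. Names came from the second design and from RefSeq tables. Python 3.11.15 did the rest.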

Additional observations from a re-analysis of the deposited data

Results flagged for a closer look

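In 10 groups of control channels 1 array was set against the others by its gap, and 4 had an array in PC3 that stood apart. The 4 are probes on the same 5 PC3 controls, and the rule used these levels. No chance rate applies to them, and they are given as a description. Of the 4, 2 are SNHG5 probes that share 59 bases and read 1 transcript. LOC100509498 was at -0.41 on 1 array and at 1.12 to 1.35 on the other 4. The 2 SNHG5 probes were at 2.35 and 2.36 on 1 array and between 1.68 and 1.85 and between 1.71 and 1.85 on the others. LINC00958 was at -2.38 on 1 array and between -2.89 and -2.83 on the others.

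A few members moved past 1 in opposite directions in the 2 lines of a treatment, and these differences were not tested. After genistein they were 2 probes of LOC100506190 (1.30 in PC3 and -1.18 in DU145, and 1.09 and -1.25), LOC100506119 at chr9:132099201-132104322 (1.03 and -1.28) and LOC283588 at chr14:91314205-91316995 (1.21 and -1.67). After wogonin they were 2 probes of C17orf51, at 1.14 in SAS and -1.15 in FaDu and at 1.09 and -1.40.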

How the results depend on the processing

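Counts of called members (298 for genistein, 12 for si-CAV2, 106 for miR-145, 111 for si-LAMB3, 68 for wogonin) changed by over 1.5 times as follows. Each treatment's own arrays alone gave 0, 0, 4, 0 and 0. With no filter on dim probes genistein had 196, si-CAV2 3, miR-145 57 and wogonin 40. With normexp si-CAV2 had 2 and wogonin 37, and with no background correction 5 and 33. Subtracting the mean of other treatments on the design gave si-CAV2 0 and si-LAMB3 33. Subtracting that on the slide gave si-CAV2 2, miR-145 287, si-LAMB3 58 and wogonin 160. Without probes holding GGGGG si-CAV2 had 5, and without GGGG it had 2, miR-145 63 and wogonin 43, both chosen after seeing the data. Size alone, past 0.5 on all arrays, gave si-CAV2 39, miR-145 68 and wogonin 165, and past 1.0 gave genistein 55, miR-145 13, si-LAMB3 22 and wogonin 30. Leaving out 1 line gave 87 to 286 for genistein, 0 to 0 for si-CAV2, 26 to 86 for miR-145, 13 to 45 for si-LAMB3 and 19 to 32 for wogonin, with the lone line taken to vary like the others. The control channel counts of 72 and 99 ranged from 21 to 181 and from 38 to 235 with 1 array left out (A498 has 1 array and was kept) and were 194 and 162 without the untreated 786O controls. The split of miR-145 calls, 72 lower and 34 higher, became 42 and 62 with normexp and 47 and 60 with no background correction, and that of wogonin, 28 and 40, became 6 and 70 after subtracting the other treatments on the design. Subtracting those turned the miR-145 mean of chr12:105956302-105956716 to 0.22 and of chr6:3908865-3909288 to 0.0788. Of 30 named ratios, 30 were smaller with normexp, and none changed sign with it. The cause of these changes was not tested, apart from settings that use fewer arrays. Each ratio pairs treated and control RNA of 1 line on 1 array. With 1 array per line and treatment, there were no replicate arrays within a line to pair further. Dim probes limit the sizes, since the treated signal of some lies near background.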
